A study of Mus musculus with 6 samples.

Results

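The 76 genes described here encode proteins of the mitochondrial ribosome in mouse skeletal muscle. They are the entries of the expression table whose symbol starts with *Mrps* or *Mrpl* followed by a number, with entries marked as pseudogenes left out, and they were found among 37979 genes. By the structure of the mammalian mitochondrial ribosome, 26 of them are proteins of the small subunit and 49 are proteins of the large subunit. *Mrps30* and *Mrps18a* carry small subunit names and belong to the large subunit. *Mrps36*, the remaining member, is a component of the 2-oxoglutarate dehydrogenase complex of the citric acid cycle and not of the ribosome. A further 4 pseudogene entries were excluded by the rule.

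The mitochondrial ribosome translates the few messenger RNAs that are made from mitochondrial DNA, all of which encode membrane subunits of the respiratory chain and the ATP synthase. Its ribosomal RNAs come from mitochondrial DNA, whereas every one of its proteins is encoded in the nucleus, made in the cytosol and imported. Some of these proteins have relatives in the bacterial ribosome and others were added during the evolution of mitochondria. Skeletal muscle holds many mitochondria, and the supply of respiratory chain subunits there depends on both ribosomes, the cytosolic and the mitochondrial.

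RNA was measured in the hindlimb gastrocnemius (GAS) muscles of 3 wildtype (WT) and 3 knockout (KO) mice, with 1 library per mouse. The KO mice lack Kvβ2, a cytoplasmic subunit of voltage-gated potassium channels encoded by *Kcnab2*, in the whole body, and both genotypes were male, 20 weeks of age, untreated and bred from heterozygous parents. Replicates are numbered 1, 7 and 8 in each genotype, and where a value is given for every library, it follows that order, the WT libraries first. Values are FPKM, fragment numbers scaled to the length of the transcript and to the mapped fragments of the library, as the authors deposited them.

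The KO libraries were less deep, with an estimated 14900000 to 19500000 fragments against 19900000 to 22000000 in the WT libraries. *Kcnab2* had 0.233, 0.1 and 0.11 FPKM in the WT libraries and 0, 0.0151 and 0 FPKM in the KO libraries (two-sided exact permutation p = 0.1, which is the lowest possible for 3 against 3). Of 9 muscle fiber markers, 8 had a log2 fold change above 0 and none was listed at 0 in all libraries. Their summed level was 24660 to 37236 FPKM in WT and 42072 to 45468 FPKM in KO muscle. The GC content of these markers was 52.6% to 57.4%. After the correction for GC content described below, *Actn3*, *Tnnc2* and *Pygm* had log2 fold changes of -0.19, -0.12 and -0.28. The other fiber markers stayed above 0, and *Acta1* went from 0.83 to 0.36. Of 5 adipocyte markers, all were higher on average in KO muscle. Their sum was 233 to 440 FPKM in WT and 298 to 593 FPKM in KO libraries. Most of that sum was *Fabp4*, with 409, 227 and 217 FPKM in WT and 258, 450 and 294 FPKM in KO muscle. The genotypes were apart for *Plin1* (log2 fold change 2.79, SE 0.71) and *Cfd* (2.11, SE 0.64), which were at 2.29 and 1.56 after that correction. *Plin1* was low, at most 0.5 FPKM in WT and 7.37 FPKM in KO muscle. The genotypes overlapped for *Adipoq*, *Lep* and *Fabp4*. All 4 red blood cell markers had a log2 fold change above 0, but the genotypes were apart only for *Hba-a1*, an alpha globin gene. It had 36.7, 27.4 and 43.5 FPKM in WT and 56.1, 102 and 117 FPKM in KO muscle. The genotypes overlapped for *Hbb-b1*, *Hbb-b2* and *Alas2*, with log2 fold changes of 0.23 (SE 0.27), 0.0053 (SE 0.23) and 0.16 (SE 0.17). The summed levels of adipocyte, macrophage, endothelial, fibroblast, Schwann cell and red blood cell markers overlapped between the genotypes. The part of these differences in the values below was not tested, and in whole muscle fewer cells of a type cannot be told apart from less RNA per cell.

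All 76 genes were expressed, none was listed at 0 in any library, and the lowest value was 5.25 and the highest 351 FPKM. Their mean level over the 6 libraries spanned 45.1-fold around a median of 28 FPKM, and 60 of the 76 genes lay between 10 and 50 FPKM. The median was 22.8 FPKM for the small subunit and 29.1 FPKM for the large subunit. *Mrpl42*, a large subunit protein with no bacterial relative, had the highest level, with 310, 321 and 351 FPKM in WT muscle and 277, 275 and 298 FPKM in KO muscle. Every KO library was under every WT library for this gene. *Mrpl33*, a small protein with a bacterial relative, came next with a mean of 192 ± 21.5 FPKM in WT and 168 ± 10.1 FPKM in KO muscle. In these and later sentences the value after ± is the SD over the 3 libraries of a genotype. *Mrps21* followed with 112 ± 19.1 FPKM in WT and 134 ± 9.35 FPKM in KO muscle, and *Mrpl51* with 112 ± 10.8 and 105 ± 4.55 FPKM. *Mrpl30* was at 92.3 ± 3.23 and 85.1 ± 3.06 FPKM, and *Mrps36* at 88.9 ± 14 and 78.9 ± 4.32 FPKM. Among these 6 genes *Mrpl42* and *Mrpl33* stood apart from the rest, whereas *Mrps21* and *Mrpl51* had the same WT mean within their spread. At the low end, *Mrpl19* was at 6.45 ± 1.05 FPKM in WT and 7.09 ± 0.945 FPKM in KO muscle, *Mrpl39* at 9.12 ± 1.03 and 8.16 ± 0.515 FPKM, and *Mrps2* at 9.61 ± 0.267 and 8.34 ± 0.428 FPKM. The shallowest measurement of any member, *Mrps12* in its lowest library, rested on about 83 fragments. The median of the lowest count over the members was about 418 fragments. The depth estimate took 100 to 200 bases off the transcript length and these counts did not, so they are upper values, most of all for short transcripts.

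The genes lie on 17 chromosomes, with 10 on chromosome 11, 8 on chromosome 17 and 7 on chromosome 6. Many start beside a gene on the opposite strand, so that both genes may share a promoter region. Promoter windows of 300 bases, from 250 bases before to 50 bases after the start, were found for 67 of the 76 members in RefSeq on GRCm38.p6. Of the 73 windows of these members, 32.9% held CCGGAAG, the core of a site for ETS factors, on either strand, against 8.86% of all 32851 windows and 17.1% of the windows of tested genes. The letters GCGCATGC, a core of the site for NRF1, a regulator of many nuclear genes for mitochondrial proteins, were in 11% of the members' windows, against 2.71% of all windows and 5.29% of those of tested genes. ATGGCGG, a core of the site for YY1, was in 17.8%, against 4.05% of all windows and 7.9% of those of tested genes. No motif overlaps another by its letters in the windows printed here, and a match is a description of letters and not a bound site. The median GC content of the windows was 58.3% for the members and 52.7% for all genes.

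The windows of 5 members are printed, chosen after the values of the comparison of the genotypes were seen. *Mrpl14* had the highest log2 fold change, and *Mrpl52* had the lowest once GC content was taken into account. For *Mrps11*, *Mrps12* and *Mrpl49* the log2 ratio to the gene that starts beside them did not overlap between the genotypes. Each ratio had p = 0.1 in the exact permutation test, the smallest possible, and 0.225 after Benjamini-Hochberg adjustment. The windows are chr17:45686099-45686398 on the plus strand for *Mrpl14*, chr7:78782881-78783180 on the plus strand for *Mrps11*, chr7:28741772-28742071 on the minus strand for *Mrps12*, chr19:6057706-6058005 on the minus strand for *Mrpl49* and chr14:54426659-54426958 on the plus strand for *Mrpl52*, all on GRCm38.p6. Each is written 5′ to 3′ on the strand of the member, and capitals mark the motifs, the YY1 core in *Mrps11* and the ETS core in *Mrps12* and *Mrpl52*, as listed or as the reverse complement.
Mrpl14: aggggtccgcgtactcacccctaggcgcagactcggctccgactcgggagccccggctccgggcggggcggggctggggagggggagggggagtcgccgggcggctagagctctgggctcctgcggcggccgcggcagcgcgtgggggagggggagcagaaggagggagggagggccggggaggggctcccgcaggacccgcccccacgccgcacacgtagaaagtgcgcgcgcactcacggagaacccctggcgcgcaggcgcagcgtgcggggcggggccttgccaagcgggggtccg
Mrps11: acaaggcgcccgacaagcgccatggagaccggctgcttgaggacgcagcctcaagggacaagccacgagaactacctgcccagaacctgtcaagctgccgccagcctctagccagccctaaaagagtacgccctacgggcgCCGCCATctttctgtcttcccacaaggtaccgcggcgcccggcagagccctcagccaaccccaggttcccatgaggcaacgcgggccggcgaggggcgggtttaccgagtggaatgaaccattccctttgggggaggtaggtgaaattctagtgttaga
Mrps12: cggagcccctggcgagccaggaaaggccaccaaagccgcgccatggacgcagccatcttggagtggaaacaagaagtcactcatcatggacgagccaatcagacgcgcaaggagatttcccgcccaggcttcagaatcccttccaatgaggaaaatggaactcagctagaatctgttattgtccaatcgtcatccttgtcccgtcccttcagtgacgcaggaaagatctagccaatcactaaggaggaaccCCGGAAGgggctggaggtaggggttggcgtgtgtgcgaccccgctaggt
Mrpl49: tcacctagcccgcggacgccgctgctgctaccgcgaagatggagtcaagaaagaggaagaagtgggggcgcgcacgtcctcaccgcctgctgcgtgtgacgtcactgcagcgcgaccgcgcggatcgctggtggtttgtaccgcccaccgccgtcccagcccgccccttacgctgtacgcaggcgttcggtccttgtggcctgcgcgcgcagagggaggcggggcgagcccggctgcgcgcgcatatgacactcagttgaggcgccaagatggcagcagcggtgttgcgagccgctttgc
Mrpl52: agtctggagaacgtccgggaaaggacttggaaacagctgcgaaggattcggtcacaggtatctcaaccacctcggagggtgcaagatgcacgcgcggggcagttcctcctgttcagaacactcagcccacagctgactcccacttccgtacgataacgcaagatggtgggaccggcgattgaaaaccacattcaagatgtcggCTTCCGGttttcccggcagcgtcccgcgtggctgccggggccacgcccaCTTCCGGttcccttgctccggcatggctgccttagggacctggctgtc
*Mrpl52* holds the ETS core on 2 occasions, both as the reverse complement, and the windows of *Mrpl14* and *Mrpl49* hold none of the 3 motifs. The *Mrpl14* window has a GC content of 78.0%, the *Mrpl49* window of 68.3%, and those of *Mrps11*, *Mrps12* and *Mrpl52* of 62.0%, 56.3% and 60.3%. Members with the ETS core had a median log2 fold change of -0.032 and members without it of -0.045. The medians were -0.10 with and -0.022 without the NRF1 core, which 8 members held, and -0.043 with and -0.04 without the YY1 core. These differences were not tested.

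The comparison of KO with WT muscle asks whether loss of Kvβ2 goes with a different level of these messenger RNAs. No member passed an adjusted p of 0.05 in limma, where 0.324% of all 12334 tested genes did. The lowest adjusted p of a member was 0.0667. At an unadjusted p under 0.05, 13 of 76 members were higher in KO muscle, or 17.1%, beside 15.3% of all tested genes. A further 10 members were lower, or 13.2%, beside 10.9% of all tested genes. Every KO library was above every WT library for 13 members, where 18.3% of all tested genes had this pattern, and every KO library was below every WT library for 16 members, beside 16.2% of all tested genes. The genotypes overlapped for the other 47 members. With weights that let libraries differ in quality, 18 members passed an adjusted p of 0.05, of which 12 were higher and 6 lower, but that fit called 25.5% of all tested genes, 15.1% higher and 10.4% lower. The shares of the members were thus near those of all genes under each of these rules.

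The differences were small. The median log2 fold change was -0.022 over the members and 0.010 over all tested genes, and 24 members had a log2 fold change within 0.1 of 0. Only 6 members exceeded 0.5 in size and none reached 1, with a median standard error (SE) of 0.12. The median coefficient of variation between libraries of a genotype was 8.72% in WT and 7.63% in KO muscle. In the heat map of all members, the upper rows are higher in each KO library, the lower rows are lower, and a broad band between them shows no separation of the genotypes. KO replicate 7 holds the deepest colour in several rows at both ends. WT replicate 1 held the highest value of 27 members and the lowest value of 19.

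**Figure D1:**
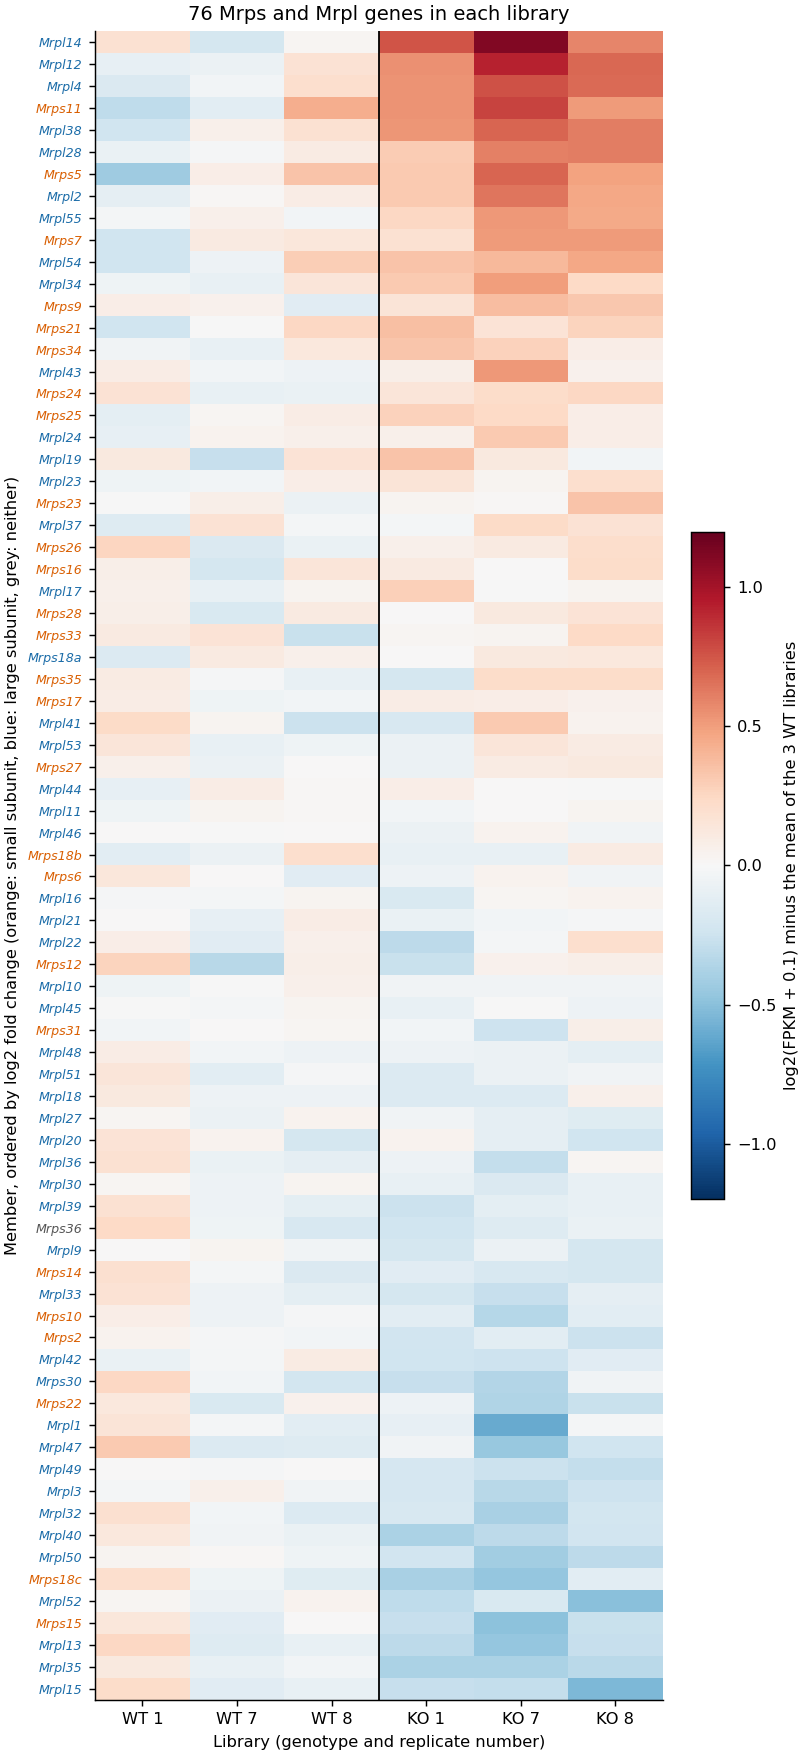
Each row is 1 of the 76 members and each column 1 library; colour gives log2(FPKM + 0.1) minus the mean of the 3 WT libraries, and rows are ordered by log2 fold change from 0.82 for Mrpl14 to -0.37 for Mrpl15. The first 6 rows are higher and the last 5 rows lower in every KO library than in every WT library, and most rows between change little.

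Among the members at the upper end, *Mrpl14* (ENSMUSG00000023939, chromosome 17, 45686322 to 45698495 of GRCm38) encodes a protein of the face of the large subunit that meets the small subunit. It was at 26, 19.8 and 23.3 FPKM in the WT libraries and at 38.7, 49.5 and 34.5 FPKM in the KO libraries. All KO values lay above all WT values, with KO replicate 7 the highest. The log2 fold change was 0.82 (SE 0.17, adjusted p = 0.07 in limma). *Mrpl12* (ENSMUSG00000039640, chromosome 11, 120484613 to 120489065) encodes the mobile stalk protein that meets the translation factors. Its values were 33.3, 34 and 40.2 FPKM in WT and 52.2, 67.6 and 57.6 FPKM in the KO libraries. The genotypes did not overlap, and the log2 fold change was 0.72 (SE 0.13, adjusted p = 0.0667). *Mrpl4*, which lines the tunnel through which the new protein leaves, was at 11.2, 12.4 and 14.6 FPKM in WT and at 18.4, 21.5 and 20.3 FPKM in KO muscle, and its log2 fold change was 0.66 (SE 0.13, adjusted p = 0.07). *Mrpl38*, a mitochondria-specific protein of the central protuberance, was at 14.2, 17.5 and 19.1 FPKM in WT and at 24.3, 27.4 and 25.7 FPKM in KO muscle, and its log2 fold change was 0.61 (SE 0.13, adjusted p = 0.075). *Mrpl28* was at 22.6, 23.6 and 25.6 FPKM in WT and at 29.6, 36.5 and 36.7 FPKM in KO muscle (log2 fold change 0.51, SE 0.12, adjusted p = 0.0785). In each of these genes the lowest KO library was above the highest WT library.

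*Mrps11* (ENSMUSG00000030611, chromosome 7, 78783119 to 78792989), a protein of the platform of the small subunit, was the only small subunit gene among the 6 members with the highest log2 fold change. It was at 6.39, 7.21 and 10.7 FPKM in WT and at 11.5, 13.9 and 11.3 FPKM in the KO libraries. WT replicate 8 came close to the KO libraries, the other WT libraries did not, and the log2 fold change was 0.62 (SE 0.20, adjusted p = 0.118).

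At the lower end, *Mrpl15* (ENSMUSG00000033845, chromosome 1, 4773206 to 4785739) reached 89.4, 69.7 and 72 FPKM in WT and 63, 62.7 and 52.6 FPKM in the KO libraries. WT replicate 1 stood above all other libraries, and the genotypes did not overlap (log2 fold change -0.37, SE 0.14, adjusted p = 0.152). *Mrpl35* was at 12, 10.4 and 10.8 FPKM in WT and at 8.49, 8.46 and 8.81 FPKM in KO muscle (log2 fold change -0.36, SE 0.11, adjusted p = 0.104). Its KO libraries lay close together and below every WT library. *Mrpl13* was at 70.9, 53.4 and 56 FPKM in WT and at 48.1, 43.2 and 49.2 FPKM in KO muscle (log2 fold change -0.35, SE 0.13, adjusted p = 0.16). *Mrps15* (ENSMUSG00000028861, chromosome 4, 126046925 to 126055532), whose bacterial relative binds the small subunit RNA early in assembly, was at 57.1, 47.2 and 52 FPKM in WT and at 43, 36.9 and 43.2 FPKM in KO muscle (log2 fold change -0.34, SE 0.12, adjusted p = 0.137). *Mrpl52* (ENSMUSG00000010406, chromosome 14, 54426909 to 54429756), a protein of the central protuberance, was at 39.6, 37.1 and 39.9 FPKM in WT and at 31.4, 34.2 and 27.4 FPKM in KO muscle (log2 fold change -0.33, SE 0.11, adjusted p = 0.137). The genotypes did not overlap for these 3 genes either. *Mrps18c* was at 45.4, 38.1 and 35.8 FPKM in WT and at 30.2, 28.7 and 36.3 FPKM in KO muscle, and KO replicate 8 overlapped the WT range (log2 fold change -0.33, SE 0.14, adjusted p = 0.191).

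**Figure D2:**
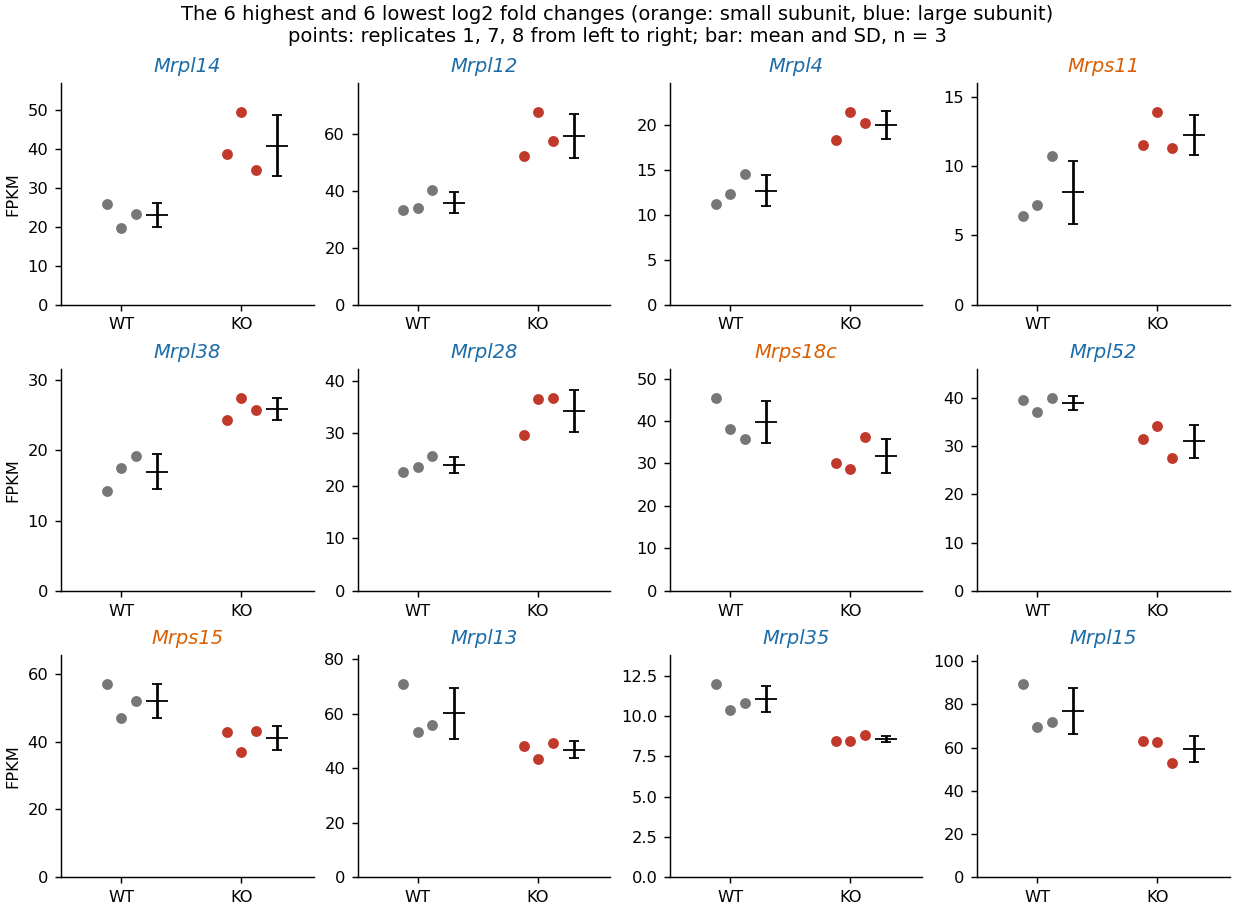
FPKM in each library for the 6 members with the highest and the 6 with the lowest log2 fold change; points are libraries in the order of replicates 1, 7 and 8, bars are mean and SD of 3 libraries, and each vertical axis starts at 0. The genotypes are apart in every panel but that of Mrps18c, in which KO replicate 8 (36.3 FPKM) lies above WT replicate 8 (35.8 FPKM).

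Members of the same functional site of the ribosome had different values. The stalk is built from *Mrpl12* together with *Mrpl10*, which anchors it, and *Mrpl11* at its base. In contrast to *Mrpl12*, *Mrpl10* was at 16.6 ± 0.639 FPKM in WT and 16.1 ± 0.0367 FPKM in KO muscle, and its log2 fold change was -0.045 (SE 0.10) as deposited and -0.23 (SE 0.081) after the correction for GC content described below. *Mrpl11* was at 39.9 ± 1.34 and 40 ± 0.875 FPKM, with a log2 fold change of 0.0032 (SE 0.092). The genotypes overlapped for both. In the decoding center, *Mrps12* was at 13.2, 8.7 and 11.5 FPKM in WT and at 9.1, 11.4 and 11.5 FPKM in KO muscle (log2 fold change -0.045, SE 0.18), with a value of -0.48 (SE 0.21) after that correction. *Mrpl45*, which holds the ribosome at the inner membrane beside the tunnel exit, was at 31.1 ± 0.632 and 30 ± 0.933 FPKM (log2 fold change -0.051, SE 0.092). Mice have 3 paralogs of the bacterial protein S18, each with its own place in the ribosome. *Mrps18c*, described above, takes the bacterial place in the small subunit, *Mrps18b* takes another place there and was at 28.2 ± 3.57 and 27.7 ± 2.16 FPKM (log2 fold change -0.021, SE 0.13), and *Mrps18a* sits in the large subunit and was at 38.5 ± 3.86 and 40.7 ± 1.91 FPKM (log2 fold change 0.084, SE 0.11). *Mrps30*, also in the large subunit, was at 16 ± 2.66 and 13.7 ± 1.55 FPKM (log2 fold change -0.22, SE 0.15).

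The counts by subunit were set beside those of all tested genes, of which 15.3% were higher and 10.9% lower at an unadjusted p under 0.05. In the small subunit, 16 of 26 genes had a log2 fold change above 0, the median was 0.087, and 4 were higher and 2 lower, or 15.4% and 7.69%. In the large subunit, 20 of 49 genes were above 0, the median was -0.045, and 9 were higher and 8 lower, or 18.4% and 16.3%. On the deposited scale, the 10 mitochondria-specific proteins of the small subunit had the narrowest range, from -0.23 for *Mrps22* to 0.23 for *Mrps34*. None was past that p, and the genotypes overlapped for all 10, beside 8084 of all 12334 tested genes. Of the 16 small subunit proteins with bacterial relatives, 4 were higher and 2 lower, or 25% and 12.5%. Of the 30 large subunit proteins with bacterial relatives, 7 were higher and 4 lower, or 23.3% and 13.3%, and of the 19 specific to mitochondria, 2 were higher and 4 lower, or 10.5% and 21.1%. After the correction for GC content described below, the 10 mitochondria-specific small subunit proteins spanned -0.40 to 0.36, with 1 higher and 1 lower. The 29 large subunit proteins with bacterial relatives and known GC content spanned a narrower -0.31 to 0.34, with 2 higher and 2 lower. Of all tested genes, 5.72% were then higher and 5.47% lower. All of these are descriptions, with no test of a group.

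Summed over its genes, the small subunit was at 736, 707 and 762 FPKM in the WT libraries and at 764, 761 and 807 FPKM in the KO libraries, so that the ranges just overlapped. The large subunit was at 2047, 1921 and 1987 FPKM in WT and at 1890, 1938 and 1959 FPKM in KO muscle, which also overlapped. The large subunit thus took 73.5%, 73.1% and 72.3% of the sum of both in WT and 71.2%, 71.8% and 70.8% in KO muscle. Each KO share was below each WT share. Without *Mrpl42*, the gene with the highest level, the shares were 70.2%, 69.3% and 68.2% in WT and 67.9%, 68.6% and 67.3% in KO muscle, so that KO replicate 7 lay above WT replicate 8 and the genotypes overlapped.

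GC content moved with the fold change. Members at the upper end had GC-rich transcripts and members at the lower end GC-poor ones, with a median of 57.3% in the 13 higher members, 46.1% in the 10 lower members and 49.9% in the other 53. Of 11 members under 45% GC, none was higher and 5 were lower, and all 11 had a log2 fold change below 0. Of 14 members at or above 55% GC, 9 were higher and 2 lower. All tested genes showed the same slope, with 16 higher and 879 lower among 2609 genes under 45% GC and 1273 higher and 19 lower among 2701 genes at or above 55%. Across genes, which share the same 6 libraries and are not independent, Spearman's rho of log2 fold change with GC content was 0.57 over 75 members and 0.70 over 11985 tested genes. The share of GC content in the differences between the genotypes was not tested beyond the correction given next.

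**Figure D3:**
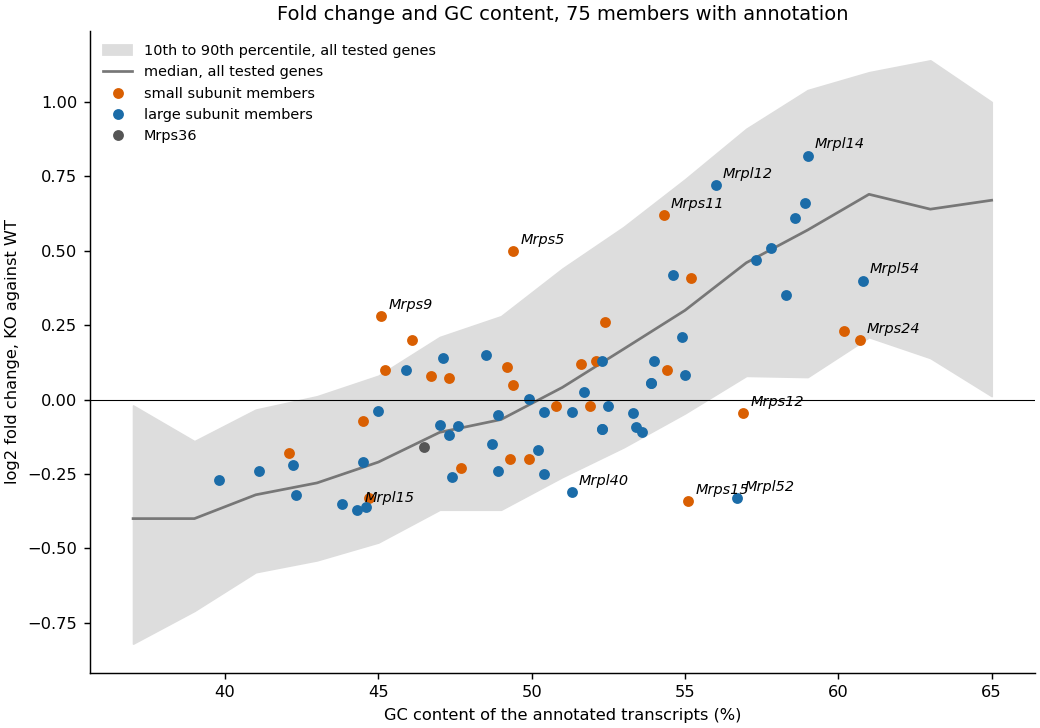
Log2 fold change of KO against WT (vertical axis) against the GC content of the annotated transcripts in percent (horizontal axis); the grey line and band are the median and the 10th to 90th percentile of all tested genes, and points are 75 members. Most members lie inside the band and follow its slope. Members outside it include Mrps5 (49.4% GC) and Mrps9 (45.1% GC) above and Mrps15 (55.1% GC), Mrpl52 (56.7% GC) and Mrps12 (56.9% GC) below.

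The test was therefore repeated after subtracting, in each library, the trend of expression on GC content. No member passed an adjusted p of 0.05 in limma, beside 0.117% of all tested genes, and the lowest adjusted p was 0.162. At an unadjusted p under 0.05, 5 of 75 members were higher, beside 5.72% of all tested genes, and 10 were lower, beside 5.47%. The log2 fold change of *Mrpl14* went from 0.82 to 0.26 (SE 0.18), that of *Mrpl4* from 0.66 to 0.10 (SE 0.087), that of *Mrpl38* from 0.61 to 0.072 (SE 0.079) and that of *Mrpl28* from 0.51 to 0.019 (SE 0.10). *Mrps11* went from 0.62 to 0.37 (SE 0.17). At the other end, *Mrps18c* went from -0.33 to -0.10 (SE 0.11), and *Mrpl15*, *Mrpl35* and *Mrpl13* went to -0.13, -0.14 and -0.10. Except for *Mrpl14* and *Mrps11*, each of these values was within 0.15 of 0 after the correction.

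In both fits, 7 members had an unadjusted p under 0.05 in the same direction. The share of all tested genes that did so was not counted, so whether 7 is unusual was not tested. These 7 members and those named with them here were picked out after their values were seen. *Mrpl12* went from a log2 fold change of 0.72 to 0.34 (SE 0.10, adjusted p = 0.327 in limma). *Mrps9*, whose bacterial relative reaches the site of the peptidyl-tRNA, was at 15.5, 15.2 and 13.3 FPKM in WT and at 16.3, 18.9 and 18.3 FPKM in the KO libraries. Every KO library was above every WT library, and the log2 fold change was 0.28 (SE 0.12) as deposited and 0.49 (SE 0.11, adjusted p = 0.255) after correction. *Mrps5*, a small subunit protein whose bacterial relative affects the accuracy of decoding, was at 22.2, 31.6 and 37.8 FPKM in WT and at 37, 48.4 and 41.6 FPKM in KO muscle. KO replicate 1 lay under WT replicate 8, and the log2 fold change was 0.50 (SE 0.20) as deposited and 0.53 (SE 0.20, adjusted p = 0.402) after correction. Among the lower members, the difference grew for *Mrpl52*, to -0.75 (SE 0.12, adjusted p = 0.162), and for *Mrps15*, to -0.65 (SE 0.15, adjusted p = 0.255). *Mrpl40*, another protein of the central protuberance, was at 25.7, 22.8 and 22.3 FPKM in WT and at 18.1, 18.9 and 20.1 FPKM in KO muscle, with no overlap. Its log2 fold change was -0.31 (SE 0.11) as deposited and -0.38 (SE 0.11, adjusted p = 0.307) after correction. *Mrpl49* was at 16.9, 16.7 and 16.9 FPKM in WT and at 14.6, 14.1 and 13.8 FPKM in KO muscle. The libraries of a genotype lay close together, with SDs of 0.112 FPKM in WT and 0.384 FPKM in KO muscle, and its log2 fold change was -0.25 (SE 0.094) as deposited and -0.26 (SE 0.083, adjusted p = 0.337) after correction.

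A correction for GC content also turned the sign of 4 members with an unadjusted p under 0.05 in the corrected fit. For this pattern too, the share of all tested genes was not counted. *Mrpl54* went from 0.40 to -0.25, *Mrps34* from 0.23 to -0.40, *Mrps24* from 0.20 to -0.44 and *Mrps18a* from 0.084 to -0.22. Their GC content is high, up to 60.8% in *Mrpl54*. After the correction, Spearman's rho with GC content was -0.38 over the 75 members and 0.01 over all tested genes, so the members followed GC content less steeply than the genes that set the trend. With GC content and length both corrected, 7 members were higher, beside 5.99% of all tested genes, and 9 lower, beside 5.32%.

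**Figure D4:**
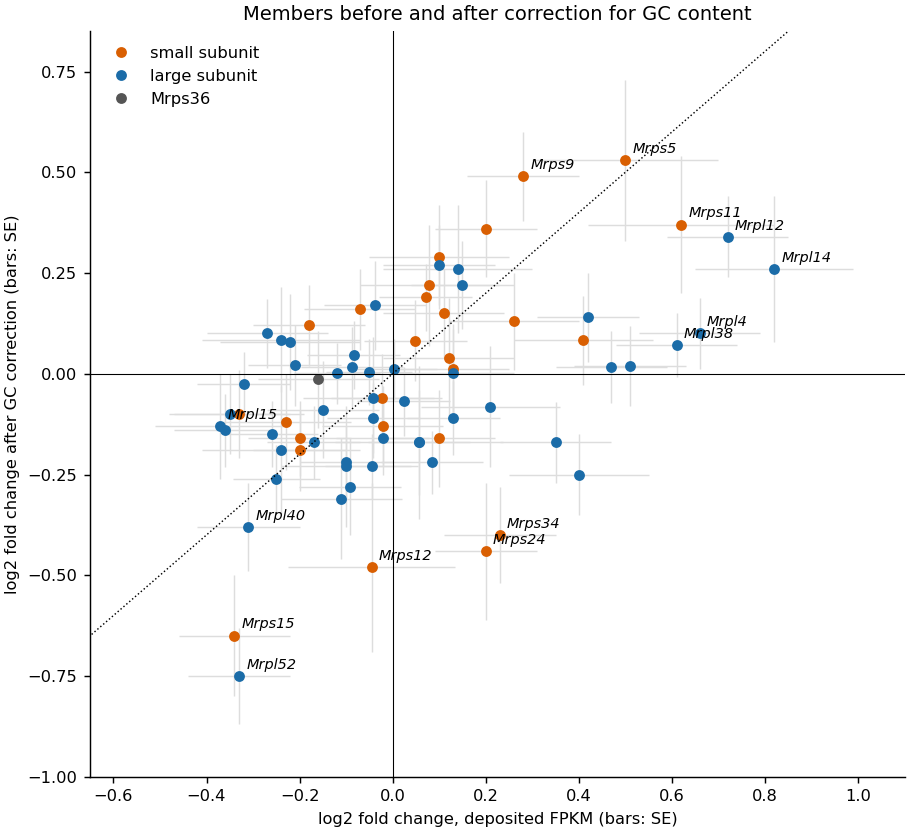
Log2 fold change of 75 members from the deposited FPKM (horizontal axis) and after correction for GC content (vertical axis), with SE bars and a dotted line of equal values. Mrpl14, Mrpl4 and Mrpl38 move to 0.26, 0.10 and 0.072, whereas Mrpl52 and Mrps15 move down to -0.75 and -0.65 and Mrps5 and Mrps9 lie at 0.53 and 0.49.

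Starts that lie close together allow a member to be compared with the gene beside it in the same libraries. Within 1000 bases of their start, 28 members had a tested protein-coding gene starting on the opposite strand, in 27 pairs, since *Mrps11* and *Mrpl46* are each other's neighbour. The sign of the log2 fold change as deposited was the same in 14 of the 27 pairs. In 5 pairs both genes had an unadjusted p under 0.05, and in 4 of these the signs were the same. The log2 ratio of the member to its neighbour was higher in every KO than in every WT library in 6 pairs and lower in 6. Single tested genes had these patterns in 18.3% and 16.2%. The lowest p of the exact permutation test over the 27 ratios was 0.225 after Benjamini-Hochberg adjustment (0.1 before it, the smallest possible). The same counts were not made for neighbouring pairs of other genes, so whether these pairs are unusual was not tested.

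The pairs described next were chosen after their values were seen. The annotated transcripts of *Mrps11* and *Mrpl46* overlap by 412 bases at their starts and share 173 exonic bases. *Mrps11*, described above, had a log2 fold change of 0.62, whereas *Mrpl46*, a protein of the central protuberance, was at 14, 13.9 and 14 FPKM in WT and at 13.3, 14.4 and 13.6 FPKM in the KO libraries and had a log2 fold change of -0.021 (SE 0.10). The log2 ratio of *Mrps11* to *Mrpl46* was -1.12, -0.94 and -0.39 in WT and -0.21, -0.051 and -0.26 in KO muscle (difference 0.64, exact permutation test, two-sided, p = 0.1). *Mrps12* and *Sars2*, the mitochondrial seryl-tRNA synthetase, start 172 bases apart. *Sars2* was at 2.12, 2.96 and 3.12 FPKM in WT and at 5.68, 5.65 and 4.33 FPKM in KO muscle (log2 fold change 0.92, SE 0.19, adjusted p = 0.0708 in limma), beside -0.045 for *Mrps12*. Their GC contents were alike, 57.2% for *Sars2* and 56.9% for *Mrps12*. The log2 ratio of *Mrps12* to *Sars2* was 2.58, 1.52 and 1.85 in WT and 0.67, 1.00 and 1.39 in KO muscle, with no overlap (difference -0.96, exact permutation test, two-sided, p = 0.1). *Mrpl49* starts 59 bases from *Fau*, which encodes a fusion of a ubiquitin-like protein with a cytosolic ribosomal protein. *Fau* was at 72.3 ± 6.89 FPKM in WT and 102 ± 3.34 FPKM in KO muscle (log2 fold change 0.50, SE 0.11, adjusted p = 0.0734 in limma), against -0.25 for *Mrpl49*. Here GC content differed, with 58.8% for *Fau* and 50.4% for *Mrpl49*, and after correction *Fau* had a log2 fold change of -0.052.

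In other pairs both genes had the same sign on the deposited scale. *Mrpl14* (0.82) lies beside *Tmem63b* (0.51), with which it shares 106 exonic bases on the opposite strand. *Mrpl54*, with a log2 fold change of 0.40, starts 26 bases from *Apba3*, with a log2 fold change of 1.21 (SE 0.23, adjusted p = 0.0667 in limma). *Mrpl2* (0.47) starts 207 bases from *Klc4* (0.92), and *Mrpl13* (-0.35) lies beside *Mtbp* (-0.86). After correction for GC content, *Mrpl54* was at -0.25 and *Apba3* at 0.57, so that their signs were opposite. *Mrpl14* was then at 0.26 and *Tmem63b* at 0.059, and *Mrpl2* at 0.017 and *Klc4* at 0.35. *Mrpl13* was at -0.10 and *Mtbp* at -0.68. In all, 31 members share exonic bases with another annotated gene, 27 of them with a gene on the opposite strand. The library kit keeps the strand, but the strand setting of the quantification is not given in the sources used here, so that reads of such partners may not be told apart.

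**Figure D5:**
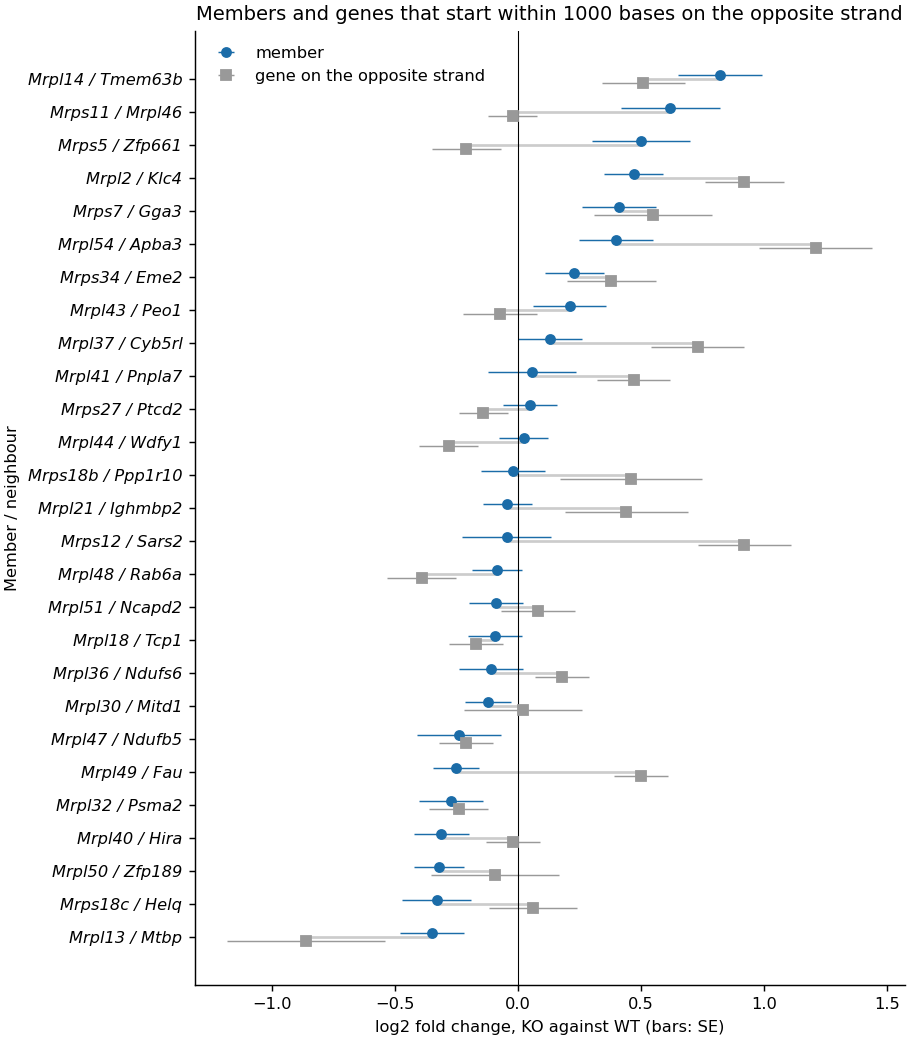
Log2 fold change with SE bars for members (blue circles) and the tested protein-coding gene that starts within 1000 bases on the opposite strand (grey squares), 27 pairs ordered by the member. The longest grey lines join Mrps12 (-0.045) to Sars2 (0.92), Mrpl54 (0.40) to Apba3 (1.21) and Mrpl49 (-0.25) to Fau (0.50).

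Proteins of the mitochondrial ribosome that carry other names had log2 fold changes within the range of the members. Of 7 such genes, 1 was higher and 2 were lower at an unadjusted p under 0.05, beside 15.3% and 10.9% of all tested genes. *Aurkaip1* was at 38.1, 44 and 46.6 FPKM in WT and at 51.8, 53.1 and 55.6 FPKM in KO muscle (log2 fold change 0.32, SE 0.11, adjusted p = 0.135 in limma). *Ptcd3*, a small subunit protein with RNA-binding repeats, was at 34.3, 31.4 and 31.6 FPKM in WT and at 26.2, 25.7 and 26.1 FPKM in KO muscle (log2 fold change -0.32, SE 0.095, adjusted p = 0.106). *Chchd1* was at 121, 114 and 112 FPKM in WT and at 99.6, 94 and 103 FPKM in KO muscle (log2 fold change -0.23, SE 0.10, adjusted p = 0.188). The genotypes did not overlap for these 3 genes. Of all tested genes, 18.3% had every KO library above every WT library and 16.2% every KO library below. After correction for GC content, the log2 fold changes of *Aurkaip1*, *Ptcd3* and *Chchd1* were -0.17, -0.015 and -0.19. *Dap3*, the GTP-binding protein of the small subunit, had a log2 fold change of -0.049 (SE 0.10), *Gadd45gip1* of -0.054 (SE 0.17) and *Mrp63* of -0.078 (SE 0.18). *Ict1*, the large subunit protein that frees peptides from stalled ribosomes and is also named *Mrpl58*, had a log2 fold change of 0.12 (SE 0.12).

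The ribosomal RNAs, which these proteins cover, had a larger difference than any member on the deposited scale. *mt-Rnr1*, the RNA of the small subunit, was at 1341, 1675 and 1306 FPKM in the WT libraries and at 596, 819 and 923 FPKM in the KO libraries. *mt-Rnr2*, the RNA of the large subunit, was at 1242, 1655 and 1066 FPKM in WT and at 516, 721 and 714 FPKM in KO muscle. Every KO library was below every WT library for both genes. The log2 fold change was -0.90 (SE 0.19, adjusted p = 0.0709 in limma) for *mt-Rnr1* and -1.01 (SE 0.20, adjusted p = 0.07) for *mt-Rnr2*, and after correction for GC content, which is 35.8% and 35.4% in these genes, it was -0.43 and -0.53. The libraries were made with a kit for messenger RNA, so these levels depend on how much ribosomal RNA was carried through. The messenger RNAs that the ribosome translates could not be followed: 9 mitochondrial protein genes were listed at 0 in all 6 libraries, and *mt-Nd2*, *mt-Nd5* and *mt-Nd6* were listed at 0 in the 3 WT libraries only. These genes are used in every muscle cell, so a listed 0 cannot be read here as absence, and the 3 genes are among the 40 of all tested genes that passed an adjusted p of 0.05 in limma. *mt-Nd3* was the remaining protein gene and the only such gene above 0 in every library. It was at 21220, 16779 and 13059 FPKM in WT and at 8989, 9872 and 10788 FPKM in KO muscle (log2 fold change -0.76, SE 0.20, adjusted p = 0.0879 in limma). After correction for GC content, which is 33% in this gene, its log2 fold change was -0.21.

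Other genes of mitochondrial gene expression and DNA upkeep were also mixed, with none past an adjusted p of 0.05 in limma in the 4 lists that follow. At an unadjusted p under 0.05, 15.3% of all tested genes were higher and 10.9% lower. Of 27 assembly factors of the mitochondrial ribosome, 5 were higher and 4 lower by that measure, or 18.5% and 14.8%, with log2 fold changes from -0.85 for *Trmt61b*, a methyltransferase, to 0.67 for *Rpusd3*, a pseudouridine synthase. Of 12 translation factors, 2 were higher and 3 lower, or 16.7% and 25%. *Tufm*, the elongation factor that brings aminoacyl-tRNA to the ribosome, had the highest log2 fold change of these (0.38, SE 0.14, adjusted p = 0.148), and *Mtrf1l*, a release factor, the lowest (-0.43, SE 0.21, adjusted p = 0.244). Of 18 genes of mitochondrial transcription, RNA handling and DNA upkeep, 2 were higher and 4 lower, or 11.1% and 22.2%. Their log2 fold changes went from -0.48 for *Mtpap*, the mitochondrial poly(A) polymerase, to 0.57 for *Polg*, the mitochondrial DNA polymerase. Of 17 mitochondrial aminoacyl-tRNA synthetases, 4 were higher, or 23.5%, and none lower. Their log2 fold changes went from -0.87 (SE 0.82) for *Lars2*, which varied from 47.6 to 431 FPKM within the WT libraries, to 0.92 for *Sars2*. After correction for GC content, 1 assembly factor was higher and 2 were lower, and 0 translation factors were higher and 1 lower. In the list with *Mtpap* and *Polg* 0 were higher and 0 lower, and 2 synthetases were higher and 0 lower. Of all tested genes, 5.72% were then higher and 5.47% lower.

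Compared with the members, the proteins of the cytosolic ribosome showed a wider spread. Of 77 genes, 21 were higher and 13 lower at an unadjusted p under 0.05, or 27.3% and 16.9% beside 15.3% and 10.9% of all tested genes, none passed an adjusted p of 0.05 in limma, and the SD of the log2 fold changes was 0.40 against 0.28 for the members. Their median log2 fold change was 0.055 and their median GC content 51.9%, against 50.4% for the members. Of 36 nuclear genes of respiratory complex I, 9 were higher and 2 lower, or 25% and 5.56%, and 1, *Ndufb7*, passed an adjusted p of 0.05 (log2 fold change 1.47, adjusted p = 0.0431). Their median log2 fold change was 0.025. The difference between these groups and the members was not tested.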

How the data were processed

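Libraries were made with a stranded messenger RNA kit from GAS muscle of 3 WT and 3 KO mice. Per the labels and the methods, the authors used TopHat for mapping to GRCm38 and Cufflinks for quantification, and they deposited FPKM values. Tool versions and the annotation release are not given in the sources used here. Depth was estimated from low FPKM values of genes with 1 transcript of 1500 to 6000 bases, of which 91.1% to 94.9% per library fell within 0.15 of a whole fragment; counts were not tested. The error of a gene thus comes from the spread between mice, which limma draws toward the trend over all tested genes.

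The test was limma 3.58.1 (R 4.3.3) on all 12334 genes whose mean reached 0.5 FPKM, using log2(FPKM + 0.1), a variance trend and Benjamini-Hochberg adjustment over all of them. On this scale the fold changes of low genes are understated. Single values were compared by exact permutation tests. Positions, lengths and GC content came from GENCODE release 21 on GRCm38, which holds 75 of the 76 members (*Mrpl33* has none there). The GC correction subtracted, per library, a loess curve of span 0.3. The code was tested on simulated data.

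The members and lists were chosen with earlier results of these data known. Members named in full were the 6 highest and 6 lowest log2 fold changes, the 6 highest and 3 lowest levels, and members picked by role, and others were named after their values were seen. Samples were grouped by the genotype in their titles. Same-numbered libraries did not deviate together (r = -0.11, -0.09 and -0.00), so the numbers were not used as pairs. Alternatives covered the pseudocount, filter, scaling, variance model, library weights, replicate block, GC content, length and leaving out each library. Plots were drawn with matplotlib 3.10.9.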

Additional observations from a re-analysis of the deposited data

How the results depend on the processing

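At an adjusted p under 0.05 the count of members was 0 under every alternative run but library weights, which gave 18, and GC correction with library weights, which gave 1 (*Mrpl52*, adjusted p = 0.0383 in limma, beside 0.401% of all tested genes) and was chosen, like the joint GC and length correction, after seeing the data. The 13 members higher at an unadjusted p under 0.05, beside 15.3% of all tested genes, became 20 with library weights. The count was 5 with GC correction, beside 5.72% of all tested genes, and 5 with GC correction and the replicate block. With GC and length correction it was 7, beside 5.99%. Leaving out a library gave 7 (without KO replicate 7) to 13 higher members, and 8 without WT replicate 7. The 10 lower members, beside 10.9% of all tested genes, became 5 with the replicate block and 13 with GC correction and library weights. The lower count was 14 with median scaling, 14 with length correction and 10 with GC correction, beside 5.47% of all tested genes for the last. Leaving out a library gave 5 (without KO replicate 8) to 8. Where no share stands beside a count, the share of all tested genes at that p was not counted. Under the replicate block 11 members were higher and none passed an adjusted p of 0.05. No same-numbered pair of libraries had a correlation above -0.00. The median log2 fold change of the members was -0.087 with median scaling, -0.087 with length correction, 0.024 with library weights and 0.006 with GC correction and library weights, and ranged from -0.036 to 0.012 (without KO replicate 1) when a library was left out. Median scaling moved the median of all tested genes to -0.055. The cause of these changes was not tested.

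Of 28 members named by rule, none changed sign with the pseudocount, filter, quantile normalization, variance trend or replicate block. With GC correction, alone and with the replicate block, the log2 fold change became 0.00066 for *Mrpl30*, 0.017 for *Mrpl51*, 0.021 for *Mrpl42*, 0.079 for *Mrps30*, 0.0053 for *Mrpl45* and -0.22 for *Mrps18a*. With GC and length correction these were 0.047, 0.014, 0.034, 0.066, 0.0074 and -0.19, and *Mrps36* became 0.035. With GC correction and library weights they were 0.028, 0.10, 0.027, 0.15, 0.0073 and -0.23, with 0.041 for *Mrps36*, 0.01 for *Mrpl13* and -0.0016 for *Mrpl11*. Library weights alone gave 0.036 for *Mrpl51*, 0.26 for *Mrps12*, 0.081 for *Mrps18b* and -0.013 for *Mrpl11*. Length correction gave -0.013 for *Mrps18a* and -0.086 for *Mrpl11*, and median scaling gave -0.062 for *Mrpl11*. Leaving out a library gave -0.21 to 0.086 for *Mrps12*, -0.00038 to 0.14 for *Mrps18a*, -0.087 to 0.079 for *Mrps18b* and -0.025 to 0.021 for *Mrpl11*. The least sampled member rested on about 83 fragments at full transcript length, an upper value, and how far depth limits the members was not tested.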

Other observations

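Of the 4 pseudogene entries that the rule left out, *Mrpl48-ps* had 9.48, 8.07 and 10.3 FPKM in the WT libraries and 6.91, 8.57 and 7.63 FPKM in the KO libraries (log2 fold change -0.26, SE 0.14, adjusted p = 0.264 in limma). *Mrpl23-ps1* ranged from 2.34 to 4.1 FPKM and *Mrps36-ps1* from 0.707 to 2.27 FPKM, and *Mrps36-ps2* was listed at 0 in every library. Fragments of *Mrpl48*, *Mrpl23* and *Mrps36* that map equally well to such copies could be split between the entries, which the FPKM do not show.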
